A study of Homo sapiens with 6 samples.

Results

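The 10 genes described here encode parts of the cyclic AMP and protein kinase A pathway: the 4 regulatory and 2 catalytic subunits of the kinase, the adenylyl cyclase ADCY3, the anchoring protein AKAP12 and the phosphodiesterases PDE4D and PDE8A. They were taken by gene symbol from a table of 60612 genes, and each symbol matched 1 row. The set was chosen with results of these samples known, and the choice names PRKAR2A, ADCY3 and PDE8A as higher after knockdown. Differences between the groups are therefore given for the 10 genes as a description and support nothing. The samples were A549 cells, an established line of epithelial cells from a human lung adenocarcinoma. Of 6 libraries, 3 came from cells transfected with small interfering RNA (siRNA) against GSE1 (siGSE1) and 3 from cells that received a negative control siRNA, all harvested 48 hours later. All data thus come from 1 line, and the labels do not state how many siRNAs were used or their sequence. Replicates carry numbers 1 to 3 in both groups, with no word on whether they were separate cultures, so a p-value here measures the spread between libraries, which may be technical.

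Cyclic AMP is made from ATP by adenylyl cyclases, most of which are switched on by the stimulatory G protein after a hormone binds its receptor. Without cyclic AMP, protein kinase A is a tetramer in which a dimer of regulatory subunits holds the catalytic subunits inactive, and cyclic AMP binding to the regulatory subunits releases their activity. Type I regulatory subunits are largely cytosolic, type II subunits are mostly held at membranes and organelles by A-kinase anchoring proteins, and phosphodiesterases end the signal by hydrolysing cyclic AMP. In airway epithelium the pathway is known for controlling ciliary beat and chloride secretion.

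Library totals ran from 14475992 to 20755506 counts. GSE1, the siRNA target, had 7.37, 8.06 and 7.92 FPKM (counts scaled to exonic length and library total) in control replicates 1 to 3 and 3.84, 4.06 and 3.73 in siGSE1 replicates 1 to 3, which gave -1.03 on the log2 scale (SE 0.06, edgeR adjusted p = 2.14e-08). Control replicates 2 and 3 stood apart in opposite directions on the second principal component, at -27.6 and 22.6, where the other 4 libraries lay between -3.23 and 6.57. Of 6 epithelial markers, 5 were above 1 FPKM in both groups, with a summed level of 2199 to 2534 FPKM in control and 2099 to 2113 in siGSE1 libraries, while EPCAM was at 0.45 to 1.14. Alveolar type II markers were nearly absent, with 7 of 8 under 1 FPKM in both groups and ABCA3 making up most of a sum of 11.9 to 12.3 and 12.5 to 14.9 FPKM. Leukocyte, fibroblast and endothelial markers were under 1 FPKM in both groups in 5 of 6, 5 of 6 and 6 of 6 genes, with PTPRC and CD3E at 0 to 0.02. The exceptions were CD14, a leukocyte marker, at 3.31 to 5.67 FPKM in control and 3.14 to 4.85 in siGSE1 libraries, and COL1A1, a fibroblast marker, at 0.99 to 1.44 and 1.17 to 1.56, and their part in the results below was not tested. In bulk RNA, fewer expressing cells and less RNA per cell cannot be told apart.

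All 10 genes passed the filter on low counts. Per kilobase, the order in control cells began with PRKAR1A at 42.4 ± 0.19 FPKM (SD, n = 3). PDE4D followed at 14.8 ± 1.21 and ADCY3 at 14.7 ± 0.18, whose libraries overlapped, and then PDE8A at 11.8 ± 0.27. PRKAR2A at 7.58 ± 0.21 overlapped PRKAR1B at 6.93 ± 0.95, and PRKACA at 5.08 ± 0.37 overlapped AKAP12 at 5.03 ± 0.48. PRKACB had 4.01 ± 0.39 FPKM and PRKAR2B, the lowest, 1.14 ± 0.04. The least abundant of the kinase subunits, PRKAR2B, rested on 73 to 101 counts per library, a counting error of 9.95% to 11.7%, whereas PRKAR1A had 4170 to 6011 counts and a counting error of 1.29% to 1.55%.

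**Figure D1:**
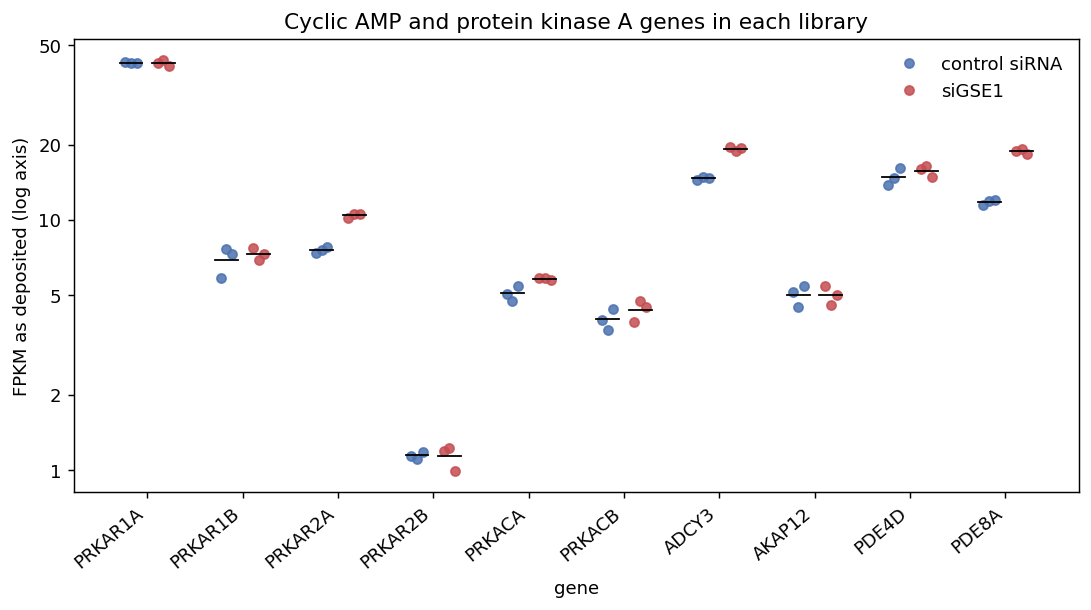
FPKM of each gene (log axis) in the 3 control siRNA libraries (blue) and the 3 siGSE1 libraries (red), with a black line at each mean. PRKAR2A, ADCY3 and PDE8A lie higher in every siGSE1 library than in any control library, as does PRKACA by a smaller distance, and the other 6 genes overlap.

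The upstream sequences of the 3 genes that the choice names as higher are shown because they are where shared letters would be looked for. All 10 genes matched RefSeq promoters of GRCh38.p14, with 36 annotated starts, and the 250 bases before each start were searched on both strands. The letters searched were TGACGTCA, the cyclic AMP response element bound by CREB, its core TGACG, which lies inside it, and GGGCGG, the GC box bound by SP and KLF factors. For each of the 3 genes the most upstream start was taken, and capitals mark TGACG and GGGCGG on either strand.
PRKAR2A, chr3:48847875-48848124, minus strand: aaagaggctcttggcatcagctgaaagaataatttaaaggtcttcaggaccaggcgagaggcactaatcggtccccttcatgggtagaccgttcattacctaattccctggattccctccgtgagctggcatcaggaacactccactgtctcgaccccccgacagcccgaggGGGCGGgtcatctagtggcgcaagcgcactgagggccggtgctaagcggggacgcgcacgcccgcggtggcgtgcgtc
ADCY3, chr2:24920238-24920487, minus strand: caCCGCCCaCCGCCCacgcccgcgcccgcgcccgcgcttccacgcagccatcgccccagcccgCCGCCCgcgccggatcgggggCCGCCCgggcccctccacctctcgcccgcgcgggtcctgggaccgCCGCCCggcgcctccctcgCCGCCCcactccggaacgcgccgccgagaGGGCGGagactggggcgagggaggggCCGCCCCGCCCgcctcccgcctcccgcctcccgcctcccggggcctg
PDE8A, chr15:84980217-84980466, plus strand: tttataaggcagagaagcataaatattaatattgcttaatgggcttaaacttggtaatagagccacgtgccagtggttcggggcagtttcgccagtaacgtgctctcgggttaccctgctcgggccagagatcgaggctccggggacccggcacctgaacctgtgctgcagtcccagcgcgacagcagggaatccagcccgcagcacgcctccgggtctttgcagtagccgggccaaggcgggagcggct
The windows held 1, 9 and 0 matches to GGGCGG and 0, 0 and 0 to TGACG in PRKAR2A, ADCY3 and PDE8A. These counts depend on the start: the window before the other ADCY3 start, at 24919585, held 1 TGACG and 2 GGGCGG, and those before the other 2 PDE8A starts held 1 GGGCGG each. Their G and C content was 60.0%, 85.2% and 58.4%. GGGCGG occurred before 17 of the 36 starts, against 42.6% of all 35116 RefSeq starts, and TGACG before 7 of 36, against 21.2%. The full element TGACGTCA occurred before 1.65% of all starts and before 1 of the 36, a start of PRKAR1A, and is shown in capitals because it is the only full match in the set.
PRKAR1A, chr17:68512370-68512399, plus strand: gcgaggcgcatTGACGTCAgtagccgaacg
A match describes the letters only, and PRKAR1A had overlapping levels in the 2 groups, as given next.

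Among regulatory subunits, PRKAR2A was higher in siGSE1 cells and the other 3 overlapped between groups. PRKAR2A, the type IIα subunit (ENSG00000114302, hg38 chromosome 3, 48744597 to 48847874, minus strand), had 7.38, 7.55 and 7.80 FPKM in control replicates 1 to 3 and 10.14, 10.57 and 10.57 in siGSE1 replicates 1 to 3. Every siGSE1 library lay above every control library, and the log2 fold change was 0.44 (SE 0.06, 95% interval 0.31 to 0.56), or 1.35-fold. It passed the threshold used throughout, an edgeR adjusted p of 0.05. In that fit 19.9% of the 15937 genes tested were called, 10.9% higher and 9.02% lower. Here 3 of the 10 genes were called higher and the other 7 in neither direction, and since the set was chosen on this contrast nothing is read from that share. PRKAR2A-AS1, an antisense gene whose span overlaps that of PRKAR2A by 303 bases, had counts equal to 2.18% of those of PRKAR2A.

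PRKAR1A, the type Iα subunit and the abundant regulatory subunit here (ENSG00000108946, chromosome 17, 68511780 to 68551319, plus strand), had 42.60, 42.46 and 42.23 FPKM in control and 42.32, 43.61 and 41.12 in siGSE1 replicates 1 to 3. The groups overlapped, and the log2 fold change of -0.03 had a 95% interval of -0.13 to 0.08. PRKAR1B, the type Iβ subunit (ENSG00000188191, chromosome 7, 549197 to 727650, minus strand), had 5.85, 7.64 and 7.31 FPKM in control and 7.71, 6.91 and 7.30 in siGSE1 libraries. Control replicate 1 was the low library, and the groups overlapped, with a log2 fold change of 0.05 (95% interval -0.14 to 0.25). The opposite-strand gene DNAAF5 overlaps its span by 952 bases and had 290% of its counts. When strand is ignored, 6.52% of the 50-base words in PRKAR1B transcripts also occur in DNAAF5 transcripts. DNAAF5 differed by -0.14 on the log2 scale (95% interval -0.26 to -0.02, edgeR adjusted p = 0.0973). No label says whether counting used strand, and whether DNAAF5 reads enter the PRKAR1B counts was not tested. PRKAR2B, the type IIβ subunit (ENSG00000005249, chromosome 7, 107044705 to 107161811, plus strand), had 1.14, 1.11 and 1.18 FPKM in control and 1.19, 1.23 and 0.99 in siGSE1 libraries. Its log2 fold change was -0.04 with the widest interval of the set, -0.40 to 0.33.

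PRKAR2A made up 13.0%, 12.8% and 13.3% of the summed FPKM of the 4 regulatory genes in control replicates 1 to 3, and 16.5%, 16.96% and 17.6% in siGSE1 replicates 1 to 3. PRKAR1A made up 74.8%, 72.3% and 72.2% and then 69.0%, 70.0% and 68.6%. The share of the 2 type II genes together was 15.01% ± 0.31 in control and 18.9% ± 0.41 in siGSE1 libraries (SD, n = 3 each), with no overlap. Since the choice names PRKAR2A as higher, its larger share and that of type II follow from the choice and support nothing. The PRKAR1A share was lower although its own FPKM overlapped between groups. These are shares of RNA and say nothing of the proteins.

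**Figure D2:**
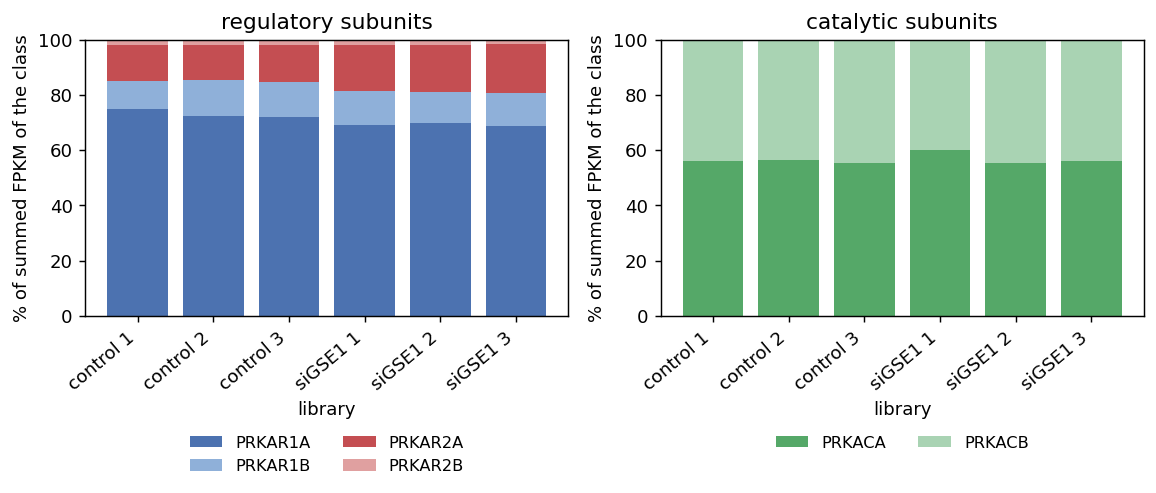
Share of the summed FPKM of the regulatory genes (left) and of the catalytic genes (right) taken by each gene in each library, in percent. The dark red PRKAR2A band widens from 12.8% to 13.3% in control libraries to 16.5% to 17.6% in siGSE1 libraries, and the catalytic bands overlap between groups.

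Neither catalytic subunit passed the threshold. PRKACA, the Cα subunit (ENSG00000072062, chromosome 19, 14091688 to 14118084, minus strand), had 5.05, 4.73 and 5.46 FPKM in control and 5.87, 5.85 and 5.73 in siGSE1 replicates 1 to 3. The groups did not overlap, as was true in the same direction of 21.2% of genes tested, and the log2 fold change was 0.17 (SE 0.07, 95% interval 0.02 to 0.33). It was the nearest of the set below the calls, ADCY3 at 0.37 being the nearest above. With libraries scaled as TPM, which divides by length before scaling, PRKACA did pass, at 0.24 with an edgeR adjusted p of 0.0346. That scaling moved the median log2 fold change of all genes tested from 0.004 to 0.067. It called 2544 genes higher and 929 lower, and was the 1 alternative of 15 that called PRKACA. PRKACB, the Cβ subunit (ENSG00000142875, chromosome 1, 84078062 to 84238498, plus strand), had 3.98, 3.64 and 4.41 FPKM in control and 3.92, 4.74 and 4.47 in siGSE1 libraries. These overlapped, with a log2 fold change of 0.11 (95% interval -0.09 to 0.30). Of all 50-base words in GENCODE release 29 transcripts, 0.016% of those of PRKACA and 0% of those of PRKACB occur in transcripts of another gene, without regard to strand.

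The 4 regulatory genes summed to 57.0, 58.8 and 58.5 FPKM in control and 61.4, 62.3 and 60.0 in siGSE1 replicates 1 to 3, and the 2 catalytic genes to 9.03, 8.37 and 9.87 and then 9.79, 10.6 and 10.2. The ratio of regulatory to catalytic RNA was 6.42 ± 0.55 in control and 6.01 ± 0.22 in siGSE1 cells (SD, n = 3 each), and the libraries of the groups overlapped.

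ADCY3, a membrane adenylyl cyclase that makes cyclic AMP (ENSG00000138031, chromosome 2, 24819169 to 24919839, minus strand), had 14.48, 14.84 and 14.70 FPKM in control and 19.62, 18.92 and 19.31 in siGSE1 replicates 1 to 3. All siGSE1 libraries were above all control libraries, and the gene was called higher, by 1.29-fold, a log2 fold change of 0.37 (SE 0.05, 95% interval 0.26 to 0.48). CENPO, a centromere protein gene on the other strand, overlaps its span by 3208 bases and shares 21.1% of the 50-base words of ADCY3 transcripts when strand is ignored. No label says whether counting used strand. CENPO had 67.8% of the counts of ADCY3 and differed by 0.08 on the log2 scale (SE 0.06, edgeR adjusted p = 0.386).

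AKAP12, a scaffold that binds type II kinase A near the plasma membrane (ENSG00000131016, chromosome 6, 151239967 to 151358559, plus strand), had 5.17, 4.50 and 5.42 FPKM in control and 5.43, 4.56 and 5.01 in siGSE1 replicates 1 to 3. Replicate 2 was the lowest library of each group, the groups overlapped, and the log2 fold change of -0.03 had a 95% interval of -0.21 to 0.15.

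Of the phosphodiesterases, PDE8A, which the choice names as higher, was called and PDE4D was not. The difference between them was not tested. PDE8A, a high-affinity enzyme specific for cyclic AMP (ENSG00000073417, chromosome 15, 84980440 to 85139145, plus strand), had 11.48, 11.92 and 11.97 FPKM in control and 18.90, 19.15 and 18.26 in siGSE1 replicates 1 to 3. No library overlapped, and the gene was called higher, with the largest fold change of the set at 1.57-fold (log2 0.65, SE 0.05, 95% interval 0.54 to 0.76). Of all genes tested, 96.0% had a log2 fold change at or below that of PDE8A, against 91.3% for PRKAR2A and 88.6% for ADCY3. PDE4D, a cyclic AMP phosphodiesterase with many promoters (ENSG00000113448, chromosome 5, 58969038 to 60522120, minus strand), had 13.75, 14.65 and 16.14 FPKM in control and 15.97, 16.45 and 14.84 in siGSE1 libraries. These overlapped, with a log2 fold change of 0.06 (95% interval -0.06 to 0.19). GENCODE release 29 lists 29 transcripts of PDE4D with 27 distinct starts and 16 of PDE8A with 13, and the deposited values sum them per gene, so a change in which start is used was not measured.

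**Figure D3:**
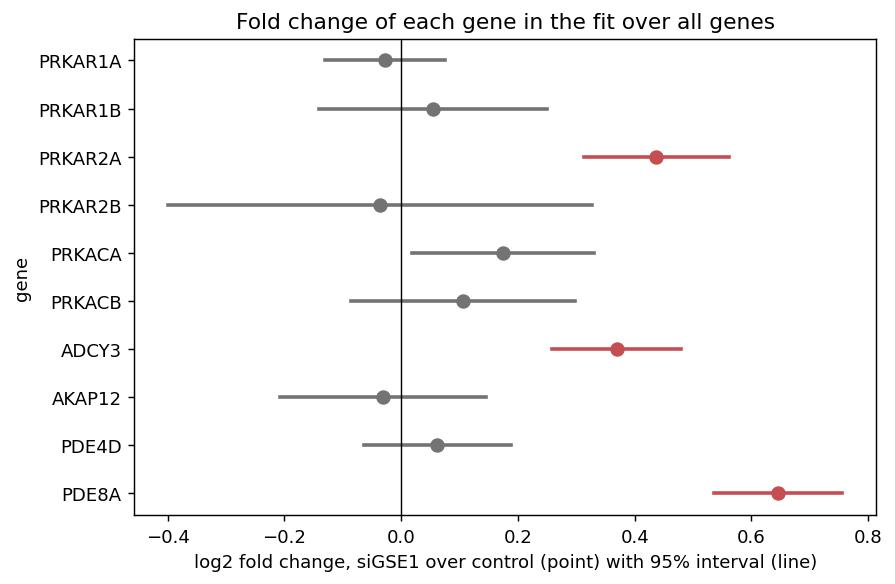
Log2 fold change of each gene, siGSE1 over control (points), with its 95% interval (lines) from the edgeR fit over all genes. The 3 genes past the threshold, in red, lie at 0.37 to 0.65 with intervals above 0, and among the grey genes the interval of PRKACA alone lies above 0.

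The called differences were as large without control replicate 2. With it left out, the log2 fold changes were 0.44 for PRKAR2A, 0.38 for ADCY3 and 0.65 for PDE8A, and all 3 were called. Under stricter limits taken from the series text, an adjusted p of 0.001 and an absolute log2 fold change of 0.5, PDE8A was the 1 gene of the 10 called, where 1.62% of all genes tested were higher and 0.929% lower. With control replicate 2 left out, PRKACA was at 0.12 and PRKACB at 0.04, and neither was called. With control replicate 3 left out, the 3 called genes stayed called, at 0.44 for PRKAR2A, 0.35 for ADCY3 and 0.64 for PDE8A, and PRKACA was at 0.21 and PRKACB at 0.16. Across the 6 libraries, PRKAR2A deviated from the control mean by -0.02, -0.00 and 0.03 in control and by 0.40, 0.45 and 0.46 in siGSE1 replicates 1 to 3 on the log2 scale. Among 6933 genes of at least 5 FPKM on average, CSK, NNMT and RAPGEF1 had the most similar deviations, with root-mean-square differences of 0.03, 0.03 and 0.03 over the 6 libraries. This match rests on the group difference of PRKAR2A, and their log2 fold changes were 0.42, 0.43 and 0.44. Shared regulation was not tested.

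The other genes of the pathway were taken as 10 lists by role, 118 genes in the table, of which 87 passed the filter. Of these, 23 (26.4%) were called higher and 4 lower, and 60 were not called, against 10.9% and 9.02% of all genes tested. Their median log2 fold change was 0.12, against 0.00 over all genes tested. The lists were chosen with earlier results of these data known. These shares and medians are therefore a description, and nothing is read from them. Of the 23, 9 were CREB target genes, and 4 were cyclases. Without siGSE1 replicate 3, 13 were called higher and 4 lower. DESeq2 did not call ADCY1, ADCY7, HRH2, PTGER2, PDE1C, GRK3 and NR4A1. On log2(FPKM + 1), limma called none of these 7, nor ADCY9 and CRTC1. On log2(FPKM + 0.1) it missed the same genes except NR4A1 (adjusted p = 0.0486), and edgeR's robust prior missed ADCY9, FOS and JUNB. With TPM scaling, which took the share of higher calls among all called genes from 54.6% to 73.3%, 28 were higher and 3 lower.

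Among 5 other cyclases tested, 4 were called higher and 0 lower, against 10.9% and 9.02% of all genes tested. Their median log2 fold change was 0.32, and nothing is read from these counts. ADCY6 had 8.10, 8.27 and 8.04 FPKM in control and 10.48, 10.18 and 10.80 in siGSE1 replicates 1 to 3, with no overlap, and 0.34 as log2 fold change (SE 0.06, edgeR adjusted p = 4.76e-04). ADCY7 rose by 0.33 (adjusted p = 0.0345) and ADCY9 by 0.30 (adjusted p = 0.0279), but ADCY9 overlapped, with 10.67 FPKM in control replicate 2 and 10.65 in siGSE1 replicate 2. ADCY1, named after its values were seen, rose by 0.32 (adjusted p = 0.0432). ADCY7 lost its call without control replicate 2 or any 1 siGSE1 replicate (adjusted p 0.0661 to 0.123), and ADCY9 without control replicate 1 or 3 or siGSE1 replicate 1 or 3 (0.0563 to 0.173). ADCY1 lost it in 5 of the 6 such fits, all but that without control replicate 3 (0.0528 to 0.175). ADCY5, at 0.32 FPKM in control and 0.20 in siGSE1 cells and named after its values were seen, was the cyclase not called. GNAS, the stimulatory G protein alpha subunit that activates cyclases, rose from 32.0 ± 1.21 to 37.3 ± 0.52 FPKM, with SD over 3 libraries each (log2 fold change 0.20, edgeR adjusted p = 0.0110, or 0.0645 without siGSE1 replicate 3). The other 5 G protein alpha genes tested, including the inhibitory ones, were not called.

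Of 10 receptors tested that couple to the stimulatory G protein, 1 was called higher and 2 lower, against 10.9% and 9.02% of all genes tested. Nothing is read from these counts. ADORA2B, the low-affinity adenosine receptor, had 8.35, 9.27 and 8.18 FPKM in control and 6.17, 5.94 and 5.49 in siGSE1 libraries, all lower, with -0.58 as log2 fold change (SE 0.10, edgeR adjusted p = 4.89e-04). HRH2, a histamine receptor, had a log2 fold change of -0.55 (adjusted p = 0.0384) and PTGER2, a prostaglandin E2 receptor, of 0.69 (adjusted p = 0.0408), at 0.67 to 1.23 and 1.11 to 2.71 FPKM, and control and siGSE1 libraries of PTGER2 overlapped. HRH2 lost its call without control replicate 1 or 2 or siGSE1 replicate 2 or 3 (adjusted p 0.0766 to 0.160), and PTGER2 without control replicate 1 or 2 or siGSE1 replicate 1 or 3 (0.0690 to 0.232). Among 6 desensitization genes tested, 1 was called higher and 0 lower, against 10.9% and 9.02% of all genes tested. The gene called was the receptor kinase gene GRK3, at 0.32 on the log2 scale (edgeR adjusted p = 0.0431). GRK3 lost its call without control replicate 3 or any 1 siGSE1 replicate (0.0938 to 0.146).

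Of 14 other anchoring genes tested, 2 were called higher and 0 lower, against 10.9% and 9.02% of all genes tested. Their median log2 fold change was 0.04. EZR, which encodes ezrin, a linker of membrane and actin that also binds kinase A, had 96.64, 94.96 and 91.72 FPKM in control and 113, 112 and 114 in siGSE1 replicates 1 to 3, with no overlap (log2 fold change 0.23, SE 0.05, edgeR adjusted p = 0.00327). AKAP13, an anchoring protein that activates the GTPase RHOA, rose from 10.0 ± 0.65 to 12.3 ± 0.40 FPKM (log2 fold change 0.27, edgeR adjusted p = 0.00348). Of the 3 tested genes for kinase A inhibitors and the related kinase PRKX, 0 passed by edgeR's test, and PKIG, the most abundant, had 6.94 ± 0.59 and 6.45 ± 0.41 FPKM (SD, n = 3 each). None of these 3 had an unadjusted p below the threshold either, since each 95% interval spanned 0.

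Among 12 other cyclic AMP phosphodiesterases tested, 3 were called higher and 0 lower, against 10.9% and 9.02% of all genes tested. Their median log2 fold change was 0.24. PDE10A had 1.41, 1.42 and 1.47 FPKM in control and 2.17, 2.00 and 2.02 in siGSE1 libraries, with no overlap (log2 fold change 0.50, SE 0.07, edgeR adjusted p = 7.07e-05). PDE4B, a close relative of PDE4D, rose from 5.87 ± 0.81 to 7.45 ± 0.05 FPKM (log2 fold change 0.32, edgeR adjusted p = 0.0102, or 0.0521 without control replicate 1), whereas PDE4D itself was not called. The difference between PDE4B and PDE4D was not tested. PDE1C rose by 0.26 (adjusted p = 0.0440), and lost its call without control replicate 2 or any 1 siGSE1 replicate (0.0866 to 0.184). Among 8 tested genes of other effectors and efflux, 0 were called higher and 1 lower, against 10.9% and 9.02% of all genes tested. The gene called was ABCC4, a transporter that exports cyclic AMP. It had 17.28, 17.69 and 17.60 FPKM in control and 11.99, 12.44 and 11.18 in siGSE1 libraries, all lower. Its log2 fold change was -0.59 (SE 0.05, edgeR adjusted p = 2.51e-06). RAPGEF3, named after its values were seen, had 0.22, 0.21 and 0.34 FPKM in control and 0.16, 0.12 and 0.17 in siGSE1 libraries. These did not overlap, with a log2 fold change of -0.79, but RAPGEF3 was not called (edgeR adjusted p = 0.0547). The remaining genes of this list had log2 fold changes above 0 and were not called.

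Among 8 tested factors downstream of kinase A, 2 were called higher and 1 lower, against 10.9% and 9.02% of all genes tested. ATF1, a close relative of CREB1 that binds the same element, had 5.03, 6.23 and 5.69 FPKM in control and 9.54, 10.11 and 10.26 in siGSE1 libraries, with 0.80 as log2 fold change (SE 0.09, edgeR adjusted p = 2.12e-05). CREB1 itself, named after its values were seen, had 3.11 and 3.24 FPKM on average and was not called (log2 fold change 0.04, 95% interval -0.11 to 0.18). CRTC1, a CREB coactivator, rose by 0.52 (adjusted p = 0.0179), but not past the threshold without control replicate 1 or siGSE1 replicate 3 (0.0645 to 0.101). EP300, the acetyltransferase recruited by CREB, fell from 9.27 ± 0.58 to 7.24 ± 0.28 FPKM (log2 fold change -0.38, edgeR adjusted p = 2.83e-04).

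Of 15 tested genes known as CREB targets, 9 were called higher and 0 lower, against 10.9% and 9.02% of all genes tested. Their median log2 fold change was 0.40, against 0.004 over all genes tested. Several of these genes were known from earlier results of these data, so nothing is read from the counts or the median. RGS2, a brake on G protein signaling, had 4.53, 4.45 and 5.92 FPKM in control and 13.1, 10.8 and 14.7 in siGSE1 libraries, all higher (log2 fold change 1.36, SE 0.13, edgeR adjusted p = 2.81e-06). PTGS2, the inducible cyclooxygenase, had 20.96, 30.23 and 26.82 and then 47.06, 43.32 and 40.33 FPKM (log2 fold change 0.72, SE 0.09, edgeR adjusted p = 6.51e-05). JUNB, a subunit of AP-1, had 49.7, 34.4 and 61.2 and then 81.7, 84.3 and 89.7 FPKM, with its lowest value in control replicate 2 (log2 fold change 0.80, edgeR adjusted p = 3.90e-04, or 0.0862 with edgeR's robust prior). Named after their values were seen, the nuclear receptor genes NR4A3, NR4A2 and NR4A1 rose by 0.98, 0.53 and 0.20, FOS by 0.76, BDNF by 0.45 and AREG by 0.37 on the log2 scale. NR4A1 lost its call in 5 of the 6 fits with 1 library left out, all but that without control replicate 2 (adjusted p 0.0670 to 0.141), and AREG in 4, without control replicate 1 or any 1 siGSE1 replicate (0.0539 to 0.0698). The 3 CREB targets with a log2 fold change below 0, named after their values were seen, were not called. EGR1, an early response factor, had 0.40, 0.48 and 0.73 FPKM in control and 0.31, 0.30 and 0.34 in siGSE1 libraries, with no overlap, on 17 to 33 counts (log2 fold change -0.76, 95% interval -1.49 to -0.04, edgeR adjusted p = 0.131). PER1 and SIK1 had log2 fold changes of -0.32 (95% interval -0.57 to -0.07) and -0.14 (-0.71 to 0.44).

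**Figure D4:**
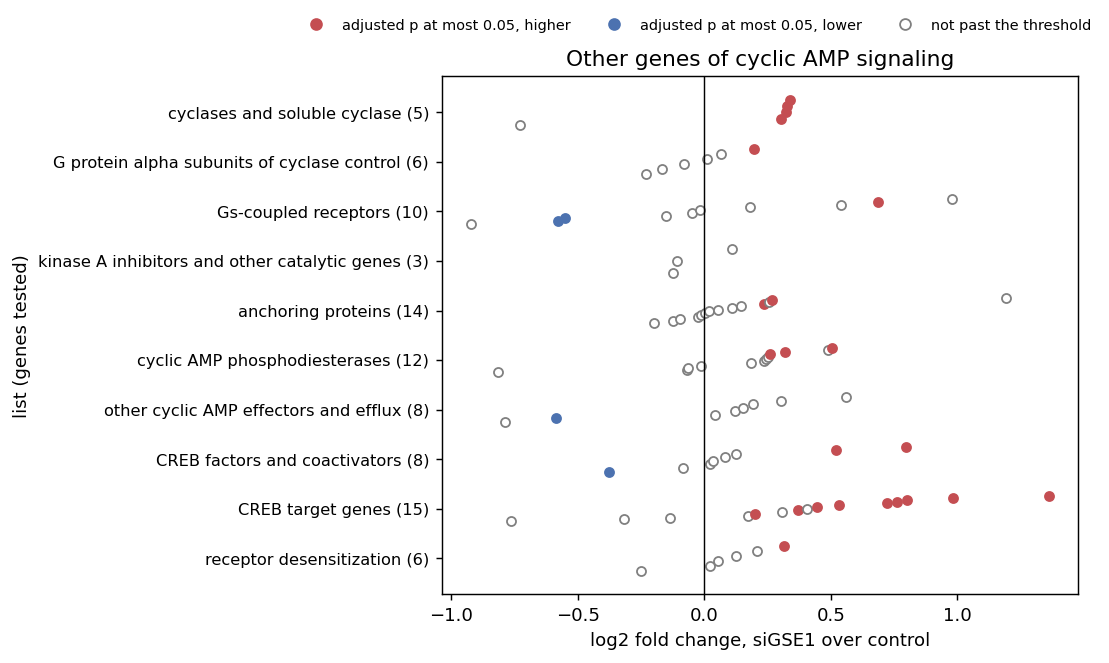
Log2 fold change, siGSE1 over control, of the 87 tested pathway genes outside the set of 10, by list, with the number tested in brackets. Filled red points are called higher, filled blue points lower and open points neither, at an edgeR adjusted p of 0.05; red points gather in the cyclase and CREB target rows, and the 4 blue points lie in the receptor, efflux and CREB factor rows.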

How the data were processed

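The authors deposited a table of whole-number read counts and FPKM per gene for each library, with exonic length, position and symbol. According to the submitters' processing notes, the tools were HISAT2, HTSeq, StringTie 1.3.3b, edgeR, cutadapt, FastQC and bcl2fastq, with hg38 and no roles given; the series text instead names STAR, RPKM and DESeq2. The deposited FPKM equal count over exonic length and library total, within 0.0051, in 100% of cells.

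Counts were filtered by filterByExpr (minimum count 10, total 15), which left 15937 genes, scaled by TMM, which corrects for composition, and tested with edgeR 4.0.16 (quasi-likelihood, group only), with Benjamini-Hochberg adjustment over all genes and a threshold of 0.05. SE is the absolute log2 fold change over the square root of F, and 95% intervals use the moderated degrees of freedom. The biological coefficient of variation was 7.00%. Alternatives used DESeq2 1.42.0, limma 3.58.1 on log2(FPKM + 1) or log2(FPKM + 0.1), other scalings, no filter and 6 fits leaving out a library. Members and lists were chosen with earlier results of these data known. From each list, up to 3 passing genes with the smallest adjusted p are named, or else the most abundant. Same-numbered libraries had correlations of 0.02, -0.02 and 0.00 in their deviations. These show no strong effect shared by number, but cannot show whether the libraries were paired. The level of 1 leukocyte marker is not reported here.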

Additional observations from a re-analysis of the deposited data

How the results depend on the processing

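Over 15 alternatives, 38 log2 fold changes gave 570 values, of which 467 kept direction and call, 94 lost the call, 1 gained it and 8 changed sign. PDE8A was called in all 15 (0.63 to 0.71), and PRKAR2A (0.41 to 0.50) and ADCY3 (0.35 to 0.43) in 14, missing only the limits after the series text, an adjusted p of 0.001 and an absolute log2 fold change of 0.5, under which 1.62% of all genes were higher and 0.929% lower, 1 of the 10 genes was higher, and 5 pathway genes higher and 2 lower. All sign changes were in uncalled genes: with TPM scaling PRKAR1A, PRKAR2B and AKAP12 were at 0.035, 0.027 and 0.032, and with a library left out PRKAR1B ran from -0.052 to 0.138, PRKAR2B from -0.092 to 0.055 and AKAP12 from -0.108 to 0.034. Pathway genes called lower were 7 with no low-count filter, where more genes were tested, and those called higher were 15 with limma on log2(FPKM + 1), for which the cause was not tested. With 1 library left out, pathway genes called higher ran from 13 to 23 and lower from 3 to 5, and the 10 genes kept 3 higher and 0 lower calls. With the replicate number as a block, 3 of the 10 were called higher and 0 lower, and pathway genes were 23 higher and 5 lower; HRH2 lost its call (adjusted p = 0.0510). The best correlation of control replicate 2 was with siGSE1 replicate 1, not its own number, but at 0.02 it does not settle pairing. Depth limits PRKAR2B most, at 73 counts in its shallowest library.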
